A study of Mus musculus with 80 samples.

Results

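The genes described here are 32 of the 25899 genes measured in this study, chosen as a list of symbols by the roles of their proteins. They encode enzymes and carriers that bring glucose into a cell and break it down to pyruvate and lactate. Others control the use of pyruvate within the mitochondrion, store and release glycogen, or buffer ATP through creatine. All 32 were found in the table of genes. RNA was sequenced from muscle stem cells (MuSCs) of the extraocular muscles (EOM), which move the eye, and of the tibialis anterior (TA), a muscle of the lower hind limb, before and after the cells were grafted into TA. The comparisons ask how these genes differed between the muscles, and how they differed in cells re-isolated from a host TA.

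The donors were male Tg:Pax7-nGFP mice on a C57BL/6;DBA2 F1/JRj background, aged 7.6 weeks in Experiment 1 and 7 weeks in Experiment 2, in which a nuclear green fluorescent protein follows *Pax7* and marks MuSCs for sorting. Every group carries this transgene, and grafted cells were found again only by it, so a cell that had lost *Pax7* expression and its fluorescence would not be in a graft library. The hosts were immunodeficient Rag2-/-;γC-/- mice whose TA muscles had been injured with cardiotoxin before grafting. Both muscles of a donor went into the 2 TA muscles of 1 host. The labels place the second sort at day 21. The methods of the study give a range of weeks that begins there, and its results name a later day. Libraries before grafting hold 500 cells, EOM graft libraries 9 to 60 cells with 1 larger library, and TA graft libraries 16 to 67 cells, by the labels, from which the sample list of the study differs for some grafts. Of 40 libraries, the 30 that passed the study's quality control were compared: 8 of EOM and 8 of TA before grafting, and 7 of EOM and 7 of TA after it.

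Glycolysis splits a glucose molecule into pyruvate in a chain of cytosolic enzymes and yields ATP without oxygen. In muscle, some steps have an isozyme that rises as myoblasts differentiate and fuse into fibres, beside one that is found in most cells. Examples are beta enolase, muscle phosphoglycerate mutase and muscle phosphofructokinase. Creatine kinase, which lies outside glycolysis, has such a muscle form too. Quiescent MuSCs are known for a small cytoplasm and a low demand for energy. Pyruvate dehydrogenase kinases restrain pyruvate dehydrogenase, and so the use of pyruvate within the mitochondrion, in resting and fasting tissue.

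Reads recovered on genes numbered 963432 to 4169357 per library before grafting and 1357233 to 2899135 after it. The share of reads from mitochondrial genes was 2.91 to 22.9% before and 3.85 to 59.6% after grafting. Values were therefore set relative to the median of the 5328 genes that had a read in all 30 libraries. Without this step, the median log2 fold change over all genes tested was -0.30 for TA against EOM, -1.48 for EOM grafts and -1.09 for TA grafts, where with it the medians were -0.09, -0.35 and -0.23. None of 13 MuSC markers was at 0 in any group. Their summed level was 15632 to 27931 RPM (reads scaled to a common library total) before grafting, 1726 to 17967 RPM in EOM grafts and 344 to 12383 RPM in TA grafts. The sum of 27 myofibre markers was 462 to 937 RPM before grafting, 573 to 3336 RPM in EOM grafts and 704 to 1623 RPM in TA grafts. The sum of 11 endothelial markers was 19.7 to 2952 RPM before grafting and 236 to 7983 RPM after it. Marker sums, here and below, are in RPM without centring, so they include the shift of the median in grafts. Of 10 or 11 fibro-adipogenic markers tested, 0 were called higher and 3 lower in TA before grafting, 1 and 0 in EOM grafts, and 7 and 2 in TA grafts.

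A level below is the log2 of reads per kilobase of exon relative to the median gene of the library, so that genes can be ranked. That gene is the median of the 5328 genes with a read in all 30 libraries. It lies above the median of all genes with a read in the same library. In EOM of mouse 4 of Experiment 2 before grafting these were 6.71 and 4.88 log2 RPM. A gene under it therefore need not be low among all genes with a read. A library without a read is placed at 0.9 of a read. *Ldha*, the lactate dehydrogenase subunit that favours making lactate, and *Aldoa*, the main aldolase of muscle, stood at the top. Over the 30 libraries the mean level of *Ldha* was 4.31 ± 0.42 (SD) and that of *Aldoa* 4.18 ± 0.32, and *Ldha* was the higher of the pair in 16 of 30 libraries, but the order turned between groups. *Aldoa* had the higher mean in both groups before grafting (4.18 against 3.99 in EOM, 4.41 against 4.30 in TA) and *Ldha* in both graft groups (4.49 against 4.18 in EOM, 4.50 against 3.93 in TA). *Pkm*, pyruvate kinase, followed at a mean level of 2.55 ± 0.60 and lay below *Aldoa* in 30 of 30 libraries. *Tpi1*, triose phosphate isomerase, had a mean level of 2.12 ± 0.49. The glucose carrier *Slc2a1* (GLUT1) came next at 1.89 ± 0.57, and these 5 genes lay above the median gene in every library. *Pgk1*, *Pdha1* and *Eno1* had mean levels of 0.81 to 0.85 and could not be ordered among themselves. *Gapdh*, although a common reference gene, held rank 14 of 32 with a mean level of 0.05 ± 0.67, and ranks 16, 17, 15 and 11 within EOM and TA before grafting and EOM and TA grafts. The order also differed by group for *Pdk4*, with ranks 5, 7, 12 and 24. At the foot of the order were *Slc2a4*, the insulin-responsive carrier GLUT4, at -4.52 ± 2.13, and *Aldoc*, the aldolase of brain, at -6.08 ± 1.46.

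**Figure D1:**
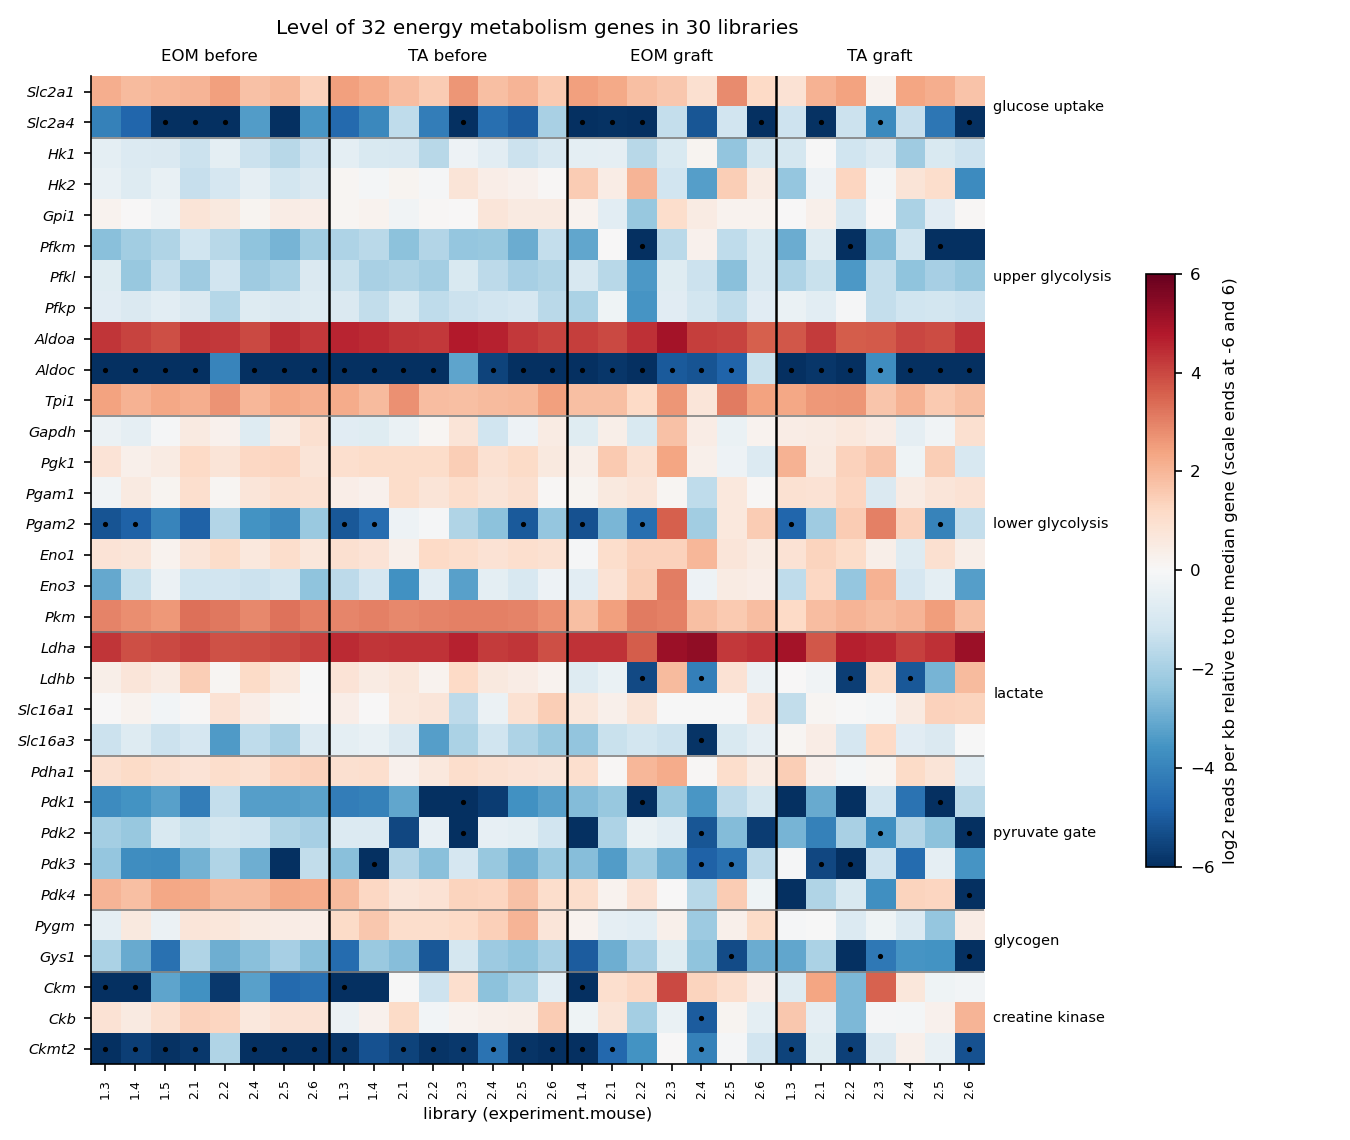
Heat map of the level (log2 reads per kb of exon relative to the median gene, colour from -6 to 6) of the 32 genes (rows, by role) in 30 libraries (columns, experiment.mouse, by group). Black dots mark libraries without a read, which are shown at their floor. *Ldha* and *Aldoa* are dark red in every column, *Aldoc* and *Ckmt2* hold dots in most columns before grafting, and graft columns are less even than those before grafting.

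Within families, the levels were uneven. Of the hexokinases, which trap glucose in the cell, *Hk2* had a mean level of -0.23 ± 1.31, and *Hk1* lay above the median gene in 1 of 30 libraries. All 3 phosphofructokinase genes, which set the pace of glycolysis, lay under the median gene, with *Pfkp* at -1.09 ± 0.63, *Pfkl* at -1.74 ± 0.69 and *Pfkm* at -2.44 ± 1.77. Of the 4 kinases that shut pyruvate dehydrogenase, *Pdk4* had a mean level of 0.39 ± 2.34, *Pdk2* of -2.49 ± 1.97, *Pdk3* of -3.03 ± 1.72 and *Pdk1* of -3.90 ± 2.03. *Gys1*, glycogen synthase of muscle, stayed low at -3.17 ± 1.57 and *Pygm*, the phosphorylase that releases glucose units from glycogen, lay near the median gene at 0.25 ± 1.00. Some of these ranks are uncertain, since reads from processed copies elsewhere in the genome can be given to either place. Of all 32-base words in the exons, 86.1% occurred elsewhere in the genome for *Pgam1*, 72.5% for *Pgk1*, 39.3% for *Ldhb*, 29.6% for *Ldha*, 28.2% for *Pkm*, 27.8% for *Gapdh* and 20.2% for *Aldoa*. It was 25.4% for *Eno1*, 21.85% for *Ckb* and 21.3% for *Tpi1*. The share was 0.561% for *Hk2*, 1.81% for *Ckm*, 1.39% for *Pygm*, 2.45% for *Pdk4* and 0.0% for *Eno3*. How reads with several places were counted is not given in the sources used here.

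The bases before the start sites of 6 of the genes called in the comparisons are shown. They place those genes beside motifs of the kind bound by hypoxia-inducible factors (GCGTG and ACGTG) and by myogenic factors (the E-box CANNTG). Each is the 150 bases before a RefSeq start on GRCm38.p6, written 5′ to 3′ on the gene's strand. Capitals mark a match to any of the 3 motifs on either strand, and ACGTG can overlap an E-box.
Hk2: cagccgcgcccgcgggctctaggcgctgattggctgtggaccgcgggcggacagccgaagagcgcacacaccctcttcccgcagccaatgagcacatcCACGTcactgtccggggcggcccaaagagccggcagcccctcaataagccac
Pdk4: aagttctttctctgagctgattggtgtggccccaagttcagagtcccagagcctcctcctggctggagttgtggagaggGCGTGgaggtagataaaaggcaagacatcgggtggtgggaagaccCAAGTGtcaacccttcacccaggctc
Pygm: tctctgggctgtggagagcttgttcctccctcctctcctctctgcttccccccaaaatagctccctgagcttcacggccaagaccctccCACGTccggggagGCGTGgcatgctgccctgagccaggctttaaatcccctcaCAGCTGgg
Eno3: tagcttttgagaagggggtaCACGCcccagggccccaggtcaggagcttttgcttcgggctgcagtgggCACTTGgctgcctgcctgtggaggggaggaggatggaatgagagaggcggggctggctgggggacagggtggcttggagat
Ckm: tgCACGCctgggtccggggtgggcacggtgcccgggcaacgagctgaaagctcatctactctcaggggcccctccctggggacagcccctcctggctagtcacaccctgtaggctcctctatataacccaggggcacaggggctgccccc
Ckb: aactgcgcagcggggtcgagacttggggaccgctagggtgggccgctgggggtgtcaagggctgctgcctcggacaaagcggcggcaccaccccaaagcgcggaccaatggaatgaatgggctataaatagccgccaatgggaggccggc

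They lie at chr6:82774455-82774604 (minus strand, *Hk2*), chr6:5496279-5496428 (minus strand, *Pdk4*), chr19:6384258-6384407 (plus strand, *Pygm*), chr11:70657026-70657175 (plus strand, *Eno3*), chr7:19410944-19411093 (plus strand, *Ckm*) and chr12:111672339-111672488 (minus strand, *Ckb*). Of these 6, *Hk2* and *Pygm* hold an ACGTG match here, and *Ckb* holds none of the 3 motifs. Among called genes not shown, *Slc16a3* and *Pkm* had an ACGTG match before a start, and *Ckmt2* had an E-box. ACGTG stood before a start of 12 of 31 genes (38.7%). Among them were *Ldha* and *Pgk1*, which were not called between the muscles before grafting. There 6 of 8 TA libraries lay above every EOM library for *Ldha*, and 1 of 8 for *Pgk1*. RefSeq gave 44 promoters for 31 of the 32 genes. GCGTG stood in 47.7% of these 44 and in 20.5% of all 32851 promoters of the same length, and ACGTG in 27.3% and 11.2%. The E-box stood in 47.7% of both. A match of 5 or 6 letters is a description of the window and not a binding site.

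Before grafting, TA MuSCs held more *Hk2* than EOM MuSCs, and 1 of the 30 genes tested was called higher and 0 lower. To be called, a gene needed an adjusted p under 0.05 (limma, Benjamini-Hochberg over all genes tested) and a log2 fold change beyond 1 either way. Of all 13217 genes tested, 1.7% were called higher and 2.19% lower in TA. *Aldoc* and *Ckmt2* did not pass the filter on low values. The median log2 fold change was -0.01 over the 30 genes and -0.09 over all genes, 7 of the 30 had an unadjusted p under 0.05, and edgeR and DESeq2 each called 3 higher and 0 lower. *Hk2* had levels of -1.37, -0.82 and -0.43 (lowest, median and highest) in EOM and of -0.12, 0.15 and 0.76 in TA. All 8 TA libraries lay above every EOM library, and TA was higher in 7 of 7 donors with both muscles. That was a log2 fold change of 1.02 ± 0.17 (SE), with an adjusted p of 0.000414. This value sits at the fold threshold. It was 0.99 with the donor as replicate block (adjusted p = 0.0017) and 0.94 to 0.99 without any 1 of 5 libraries of Experiment 2 (EOM of mice 1, 2 and 5, TA of mice 3 and 4), and the call ended there. Of 10 alternatives 5 ended it, with values down to 0.81 (without centring, adjusted p = 0.00758) and an adjusted p up to 0.683 (1 fit over 4 groups). Within Experiment 2 it was 1.25 (adjusted p = 0.00256), and within Experiment 1, with 3 EOM and 2 TA libraries, 0.55 (adjusted p = 0.292).

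*Pygm* showed the same separation on the other side of that threshold. Its levels were -0.55, 0.47 and 0.72 in EOM and 0.74, 1.18 and 2.06 in TA. All 8 TA libraries again lay above every EOM library, in 7 of 7 donors. The log2 fold change of 0.98 ± 0.21 had an adjusted p of 0.00462, and edgeR (1.01) and DESeq2 (1.01) put it just past the fold. Within Experiment 2 it was 0.71 (adjusted p = 0.0923) and within Experiment 1 1.47 (adjusted p = 0.0377), and its adjusted p was 0.285 in the fit over 4 groups. *Hk2* and *Pygm* were the only 2 of the 30 genes whose groups did not overlap, a state found with TA higher for 0.825% and with TA lower for 1.2% of all genes tested. *Pdk4* went the other way. Its levels were 1.80, 2.13 and 2.33 in EOM and 0.73, 1.26 and 1.90 in TA, and 7 of 8 TA libraries lay below every EOM library. It was lower in TA in 7 of 7 donors, with a log2 fold change of -0.83 ± 0.16 and an adjusted p of 0.00186, short of the fold threshold. Within Experiment 2 it was -0.95 (adjusted p = 0.009), within Experiment 1 -0.49 (adjusted p = 0.363), and over all libraries, passed or not, -0.56 (adjusted p = 0.25). In the fit over 4 groups its adjusted p was 0.899. Beside these 3 genes, the endothelial sum was 102 to 909 RPM in EOM and 19.7 to 2952 RPM in TA. The median log2 fold change of the 11 endothelial markers was 3.21, with 9 of 11 at an unadjusted p under 0.05. Of the 11, limma called 1 higher in TA (*Cdh5*, 4.30) and 1 lower (*Tek*, -1.24, adjusted p = 0.0167). The median share of mitochondrial reads was 3.56% in EOM and 10.7% in TA. The part of endothelial cells and of mitochondrial reads in the values of the 3 genes was not tested.

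*Ckm*, the cytosolic creatine kinase of muscle fibres, differed widely within TA. It had 0 to 17 reads in the EOM libraries and 0 to 195 reads in the TA libraries. The 2 TA libraries of Experiment 1 had 0 and 1 read, and the 6 of Experiment 2 had 7 to 195 and all lay above every EOM library. Over both experiments the log2 fold change was 2.54 ± 1.01, with an adjusted p of 0.16. Within Experiment 2 it was 3.51 with an adjusted p of 0.0113, and edgeR (3.51, adjusted p = 0.024) and DESeq2 (3.57, adjusted p = 0.000561) called it. Of 23 myofibre markers tested in this comparison, 2 (*Acta1* and *Myh4*) were called higher in TA and 0 lower, and their part in the *Ckm* value was not tested. In bulk libraries such as these, more cells of a type and more RNA per cell cannot be told apart. The other 26 genes tested had log2 fold changes of -1.52 (*Pdk1*) to 1.57 (*Slc2a4*), and none had an adjusted p under 0.05.

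**Figure D2:**
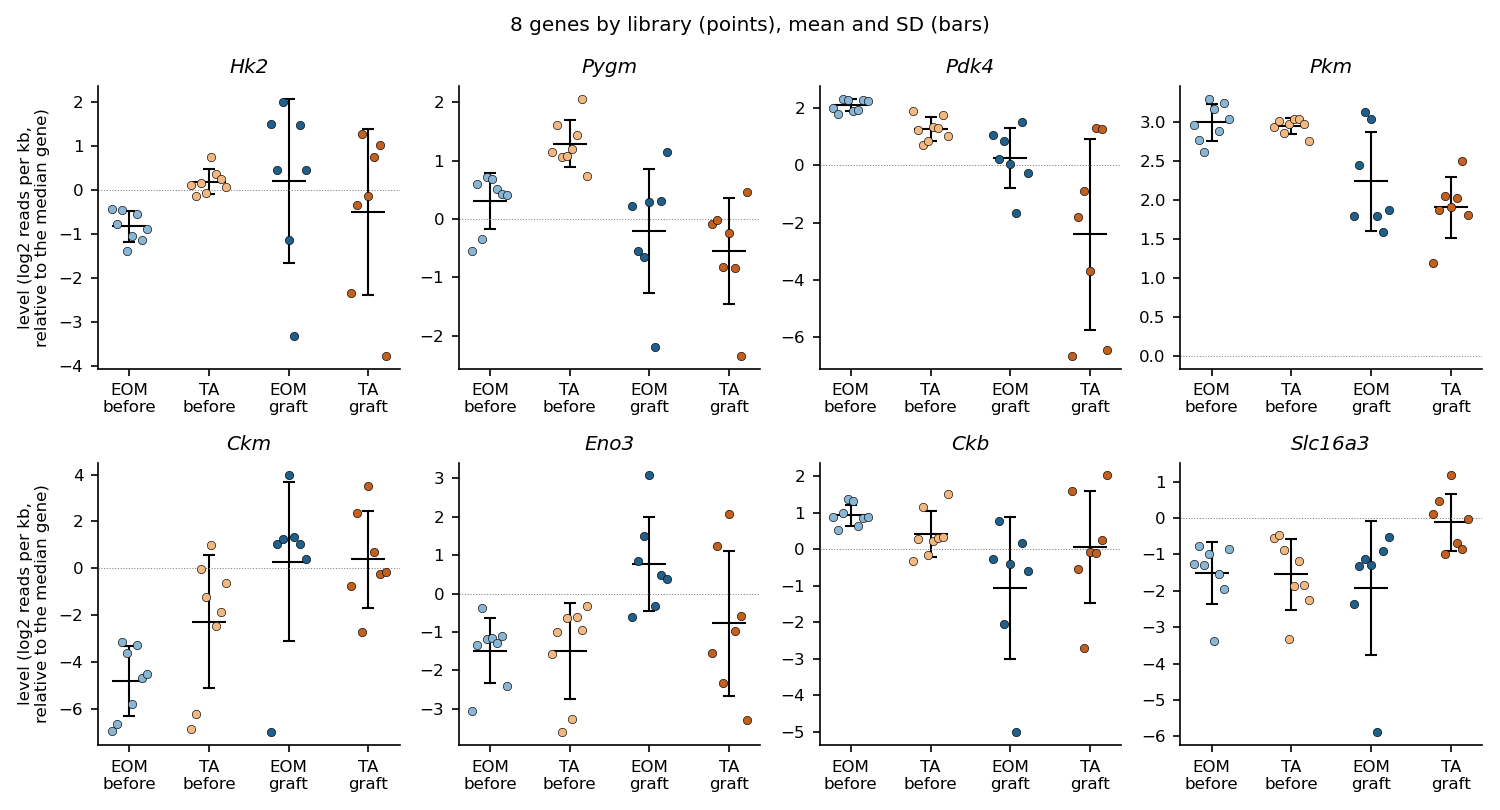
Levels (log2 reads per kb of exon relative to the median gene) of 8 genes in each library (points) of the 4 groups, with the mean and SD as bars. *Hk2* and *Pygm* lie higher in all 8 TA than in all 8 EOM libraries before grafting, *Pdk4* and *Pkm* fall after grafting, and *Ckm* is lowest in EOM before grafting.

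In EOM grafts, *Ckm* and *Eno3* rose and *Pdk4* and *Ckb* fell against EOM before grafting, which were 2 genes called higher and 2 lower of the 31 tested. Of all 13094 genes tested, 5.79% were called higher and 6.27% lower. The median log2 fold change was -0.08 over the 31 genes and -0.35 over all genes, and 9 of the 31 had an unadjusted p under 0.05. The split depended on the scale, with 1 higher and 17 lower on the authors' RPM without centring (460 and 7302 over all genes, against 758 and 821) and 4 higher and 1 lower with edgeR (907 and 380).

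*Ckm* had levels of -6.96, -4.59 and -3.17 before grafting and of -7.00, 1.03 and 3.97 in EOM grafts. Before grafting no EOM library had more than 17 reads, and 6 of 7 grafts had 46 to 418 reads. The graft of mouse 4 of Experiment 1, the one with the most cells, had 0. The log2 fold change was 5.11 ± 1.18 with an adjusted p of 0.00821, and it kept its call under all 11 alternatives and without any 1 library, at 3.78 to 6.33. *Eno3*, the beta enolase of muscle fibres, had levels of -3.07, -1.24 and -0.36 before and of -0.61, 0.50 and 3.08 after grafting. It was higher in the graft in 6 of 6 donors, with a log2 fold change of 2.26 ± 0.55 and an adjusted p of 0.011. The value was 1.80 (adjusted p = 0.0929) with the donor as replicate block, 1.14 (adjusted p = 0.0878) without centring and 1.06 (adjusted p = 0.341) over all libraries, passed or not.

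*Pdk4*, the pyruvate dehydrogenase kinase of fasting and quiescence, had levels of 1.80, 2.13 and 2.33 before grafting, and a lowest level of -1.67 and a median of 0.22 after it. All 7 grafts lay below every EOM library before grafting, as 1.87% of all genes tested did, and it was the only 1 of the 31 genes without overlap. Its log2 fold change was -1.85 ± 0.35, with an adjusted p of 0.00207, or 0.102 in the fit over 4 groups. *Ckb*, the creatine kinase of brain and of most other cells, had levels of 0.52, 0.88 and 1.37 before and of -5.01, -0.41 and 0.78 after grafting. It was lower in the graft in 6 of 6 donors, and the graft of 9 cells (mouse 4 of Experiment 2) had no read. The log2 fold change of -1.99 ± 0.61 had an adjusted p of 0.0371. That call was the least firm of these 4. Its adjusted p was 0.104 when donors were blocked (replicate block), 0.107 within Experiment 2, 0.0956 with edgeR, and 0.0503 to 0.065 without any 1 of the 8 libraries before grafting or without the grafts of mouse 2 or mouse 6 of Experiment 2.

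*Pkm* fell by less than the fold threshold in EOM grafts, with a log2 fold change of -0.76 ± 0.23, an adjusted p of 0.0334 and a lower level in 6 of 6 donors. Its adjusted p was 0.00678 to 0.0669 without each library in turn. Some of the genes that limma did not call had large but uneven differences. *Pgam2*, the phosphoglycerate mutase of muscle fibres, had 0 to 14 reads before and 0 to 93 reads after grafting, and a log2 fold change of 2.52 ± 1.12 (limma, adjusted p = 0.13), where edgeR (4.45, adjusted p = 0.0266) and DESeq2 (4.69, adjusted p = 0.00135) called it higher. *Ckmt2*, the creatine kinase of muscle mitochondria, had no read in 7 of 8 libraries before grafting and in 3 of 7 grafts. Its limma value of 2.79 ± 0.94 (adjusted p = 0.0543) depends on where libraries without a read are placed. It passed the filter on low values only with the help of graft libraries, where it was higher. *Ldhb*, the lactate dehydrogenase subunit that favours using lactate, had no read in 2 of 7 grafts and a value of -1.81 ± 0.84 (adjusted p = 0.15). *Aldoa*, *Gapdh*, *Hk1*, *Slc2a1* and *Pdha1* had log2 fold changes of -0.09 to 0.05, with SEs of 0.17 to 0.37. *Gapdh* and *Pdha1* were lower in the graft in 5 of 6 donors, *Aldoa* and *Slc2a1* in 3 and *Hk1* in 2. Without centring all 5 were called lower, at -1.21 to -1.08. *Hk2* ranged from 6 to 677 reads over the EOM grafts, and its value was 1.03 ± 0.58 (limma, adjusted p = 0.24). It was called higher by edgeR (1.71, adjusted p = 0.0272) and DESeq2 (1.77, adjusted p = 0.00321), and by limma at 2.01 (adjusted p = 0.000394) without the 2 grafts of under 20 cells.

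Of the 24 myofibre markers tested, 14 were called higher and 0 lower in EOM grafts, and of 13 MuSC markers 0 higher and 5 lower. *Xirp2*, among the 14, was at 0 in EOM before grafting and passed the filter only through the grafts. The graft of mouse 3 of Experiment 2 (16 cells, 59.6% mitochondrial reads) had the most *Ckm*, *Eno3* and *Pgam2* and the highest myofibre sum, 3336 RPM. The graft without a *Ckm* read had the lowest, 573 RPM. The part of fibre RNA in these values was not tested. *Ckm* passed the test without the former library too, at 4.50 with an adjusted p of 0.0193. Within Experiment 2 the values were 5.87 for *Ckm*, 2.43 for *Eno3* and -2.01 for *Pdk4*, each with an adjusted p under 0.05, and Experiment 1 has 1 EOM graft.

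In TA grafts, *Pkm*, *Pygm* and *Pdk4* fell and *Slc16a3* and *Ckmt2* rose against TA before grafting, which were 2 genes called higher and 3 lower of the 31 tested. Of all 13076 genes tested, 7.41% were called higher and 6.21% lower. The median log2 fold change was -0.29 over the 31 genes and -0.23 over all genes, and 9 of the 31 had an unadjusted p under 0.05. Without centring 1 was called higher and 12 lower (496 and 4046 over all genes, against 969 and 812), and with edgeR 1 higher and 2 lower (782 and 402).

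*Pkm*, the last enzyme of glycolysis, had levels of 2.76, 2.97 and 3.04 before and of 1.19, 1.91 and 2.50 after grafting. All 7 grafts lay below every TA library before grafting. Its log2 fold change was -1.04 ± 0.17 with an adjusted p of 0.000692, and -0.92 (adjusted p = 0.00121) without the graft of mouse 3 of Experiment 1. It also missed the fold threshold with DESeq2 (-0.93), in Experiment 2 (-0.92) and over all libraries (-0.95). *Pygm* had levels of 0.74, 1.18 and 2.06 before and of -2.34, -0.24 and 0.46 after grafting, again without overlap. Groups did not overlap for 1.35% of all genes tested with the grafts lower and for 1.92% with the grafts higher. Its log2 fold change of -1.85 ± 0.35 had an adjusted p of 0.00179 and kept its call under all 11 alternatives and without any 1 library, at -2.71 to -1.55. Both genes were lower in the graft in 7 of 7 donors.

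*Pdk4* had levels of 0.73, 1.26 and 1.90 before and of -6.65, -1.79 and 1.32 after grafting. Before grafting every TA library had 113 reads or more. After it 3 of 7 libraries had 0 or 1 read, 2 had 16 and 55 reads, and 2 had 147 and 170 reads, within the range before grafting. The log2 fold change was -3.68 ± 0.97 with an adjusted p of 0.0146. Tests on counts gave -1.57 (edgeR, adjusted p = 0.216) and -1.52 (DESeq2, adjusted p = 0.185), Experiment 2 by itself -2.88 (adjusted p = 0.0911) and the grafts of 20 cells or more -2.62 (adjusted p = 0.0718).

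*Slc16a3* encodes MCT4, the carrier through which glycolytic cells export lactate. It had levels of -3.31, -1.51 and -0.45 before and of -0.99, -0.03 and 1.17 after grafting, and 4 of 7 grafts lay above every library before grafting. It was higher in the graft in 7 of 7 donors, with a log2 fold change of 1.43 ± 0.44 and an adjusted p of 0.0334. Leaving out any 1 of 8 libraries ended the call, at 1.18 to 1.42 with an adjusted p of 0.0511 to 0.0727 (grafts of mouse 3 of Experiment 1 and of mice 1, 3 and 6 of Experiment 2, libraries before grafting of mice 2, 3, 5 and 6 of Experiment 2). Without centring it was 0.57 (adjusted p = 0.351), and without grafts of under 20 cells 1.16 (adjusted p = 0.119). *Ckmt2* had 1 read in 1 of 8 libraries before grafting and none in the others, and 3 to 36 reads in 4 of 7 grafts. Its fitted log2 fold change of 3.01 ± 0.91 had an adjusted p of 0.0298 but depends on where libraries without a read are placed. It passed the filter on low values only through those 4 grafts, so that it was called among genes that had to be higher there, and without any 1 of them it was not tested. Over the pooled reads of each group the ratio was 94.8, with a 95% exact interval of 16.5 to 3796 that covers counting error only. The call ended without the libraries before grafting of mouse 3 of Experiment 1 or mouse 5 of Experiment 2 (adjusted p = 0.0521 and 0.0529), in Experiment 2 (0.0503) and over all libraries (0.0873).

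*Aldoa* fell by 0.48 ± 0.16 on the log2 scale in TA grafts, short of the fold threshold, with an adjusted p of 0.0465 that was 0.0298 to 0.0914 without each library in turn. *Ckm* had 13 to 233 reads in the TA grafts and a value of 2.67 ± 1.09 (adjusted p = 0.10). *Ldhb* had no read in 2 of 7 TA grafts and a value of -2.12 ± 0.93 (adjusted p = 0.13). *Eno3*, which rose in EOM grafts, had a value of 0.71 ± 0.80 (adjusted p = 0.58) here. Of 24 myofibre markers tested, 11 were called higher and 1 lower in TA grafts, and of 13 MuSC markers 0 higher and 10 lower. *Xirp2*, among the 11, needed graft libraries to pass the filter. The 3 grafts with 0 or 1 read of *Pdk4* had MuSC sums of 344 to 4184 RPM, and the pair with the most *Pdk4* had 8367 and 9662 RPM. The highest sum, 12383 RPM, stood in a graft with 55 reads of *Pdk4*. The part of these markers in the *Pdk4* value was not tested.

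**Figure D3:**
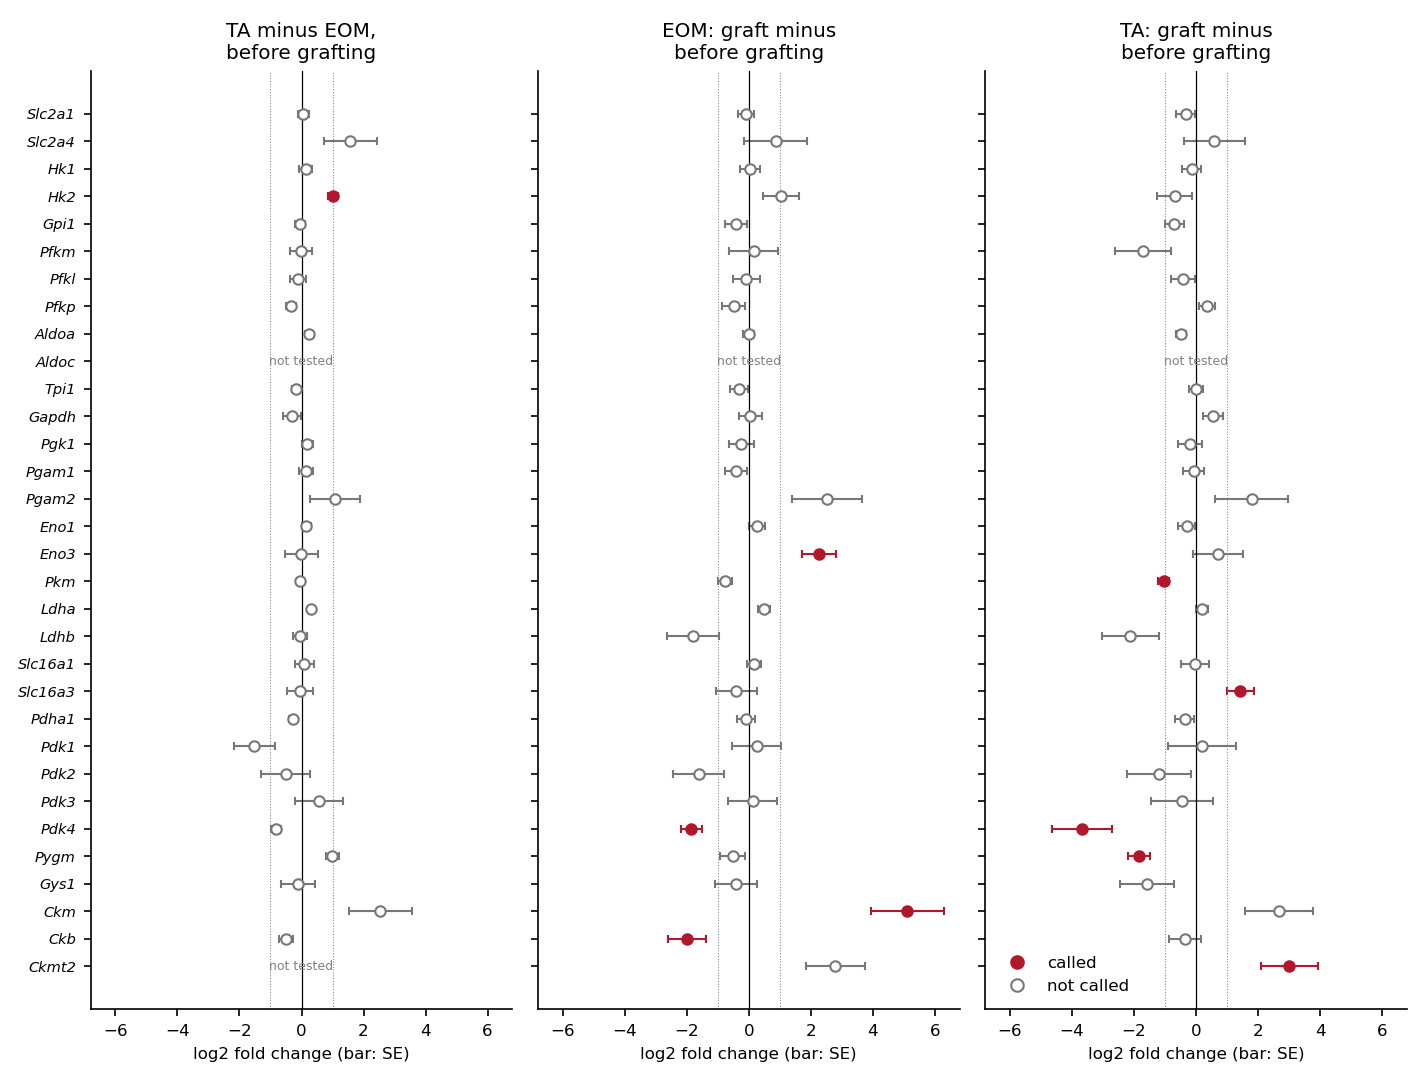
Log2 fold change with its SE for each gene (rows) in 3 comparisons (panels). Filled red points were called (adjusted p under 0.05 and beyond the dotted lines at -1 and 1), open points were not. *Hk2* is called in the left panel, *Ckm*, *Eno3*, *Pdk4* and *Ckb* in the middle and *Pkm*, *Pygm*, *Pdk4*, *Slc16a3* and *Ckmt2* on the right.

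**Figure D4:**
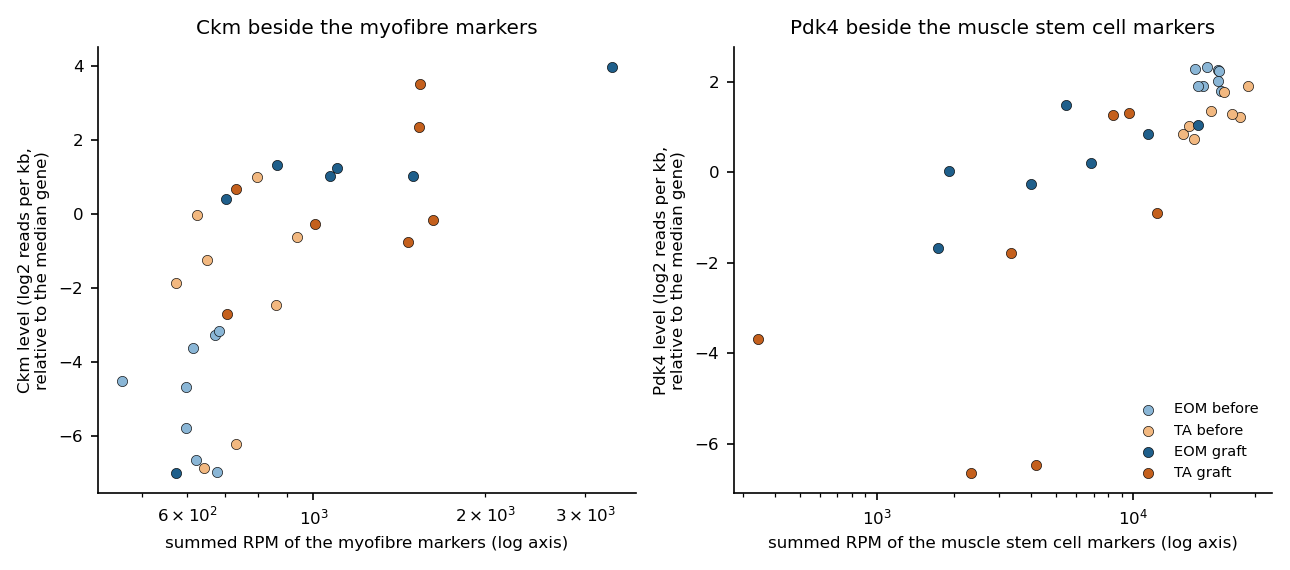
Level (log2 reads per kb relative to the median gene) of *Ckm* against the summed RPM of 27 myofibre markers (left) and of *Pdk4* against that of 13 MuSC markers (right), each point 1 of 30 libraries, with log axes for the sums. The sums are not centred, where the levels are. The graft with the highest myofibre sum (3336 RPM) has the highest *Ckm* level, 3.97. The 3 lowest *Pdk4* points are TA grafts with MuSC sums of 344 to 4184 RPM.

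The graft comparisons share their libraries before grafting with the comparison of the muscles, so values are set side by side and not combined. *Hk2*, higher in TA before grafting by 1.02, differed by -0.70 ± 0.84 between TA and EOM grafts. *Pygm* differed by 0.98 before and by -0.35 ± 0.55 after grafting, and *Ckm* by 2.54 before and by 0.09 ± 1.23 after. None of the 31 genes tested was called between TA and EOM grafts by limma, edgeR or DESeq2, and limma called 0% of all 12377 genes in either direction. At an unadjusted p under 0.05 there were 2, *Slc16a3* (1.80 ± 0.69, adjusted p = 0.94) and *Pdk4* (-2.66 ± 1.13, adjusted p = 0.94).

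How far the graft change of EOM differed from that of TA was tested directly over all 4 groups (EOM minus TA). Again none of the 31 genes was called by limma, edgeR or DESeq2, where limma called 0.0693% of 14428 genes higher and 0.0832% lower. At an unadjusted p under 0.05 there were 3. *Pygm* had a difference of 1.33 ± 0.55 (adjusted p = 0.55), *Slc16a3* of -1.84 ± 0.82 (adjusted p = 0.59) and *Aldoa* of 0.49 ± 0.23 (adjusted p = 0.62). So *Ckm*, called in EOM grafts and not in TA grafts, was not shown to change differently between the muscles (2.45 ± 1.69, adjusted p = 0.76), nor was *Eno3* (1.55 ± 0.97, adjusted p = 0.73).

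The balance within a pair of isozymes does not depend on how a library was scaled, since both genes come from the same library. Of 11 pairs, 10 could be tested before grafting, 9 in EOM grafts, 10 in TA grafts and 9 between grafts, and the p-values of the 38 exact permutation tests (two-sided) were adjusted together. The balance of hexokinases differed between the muscles. The log2 ratio of *Hk2* to *Hk1* per length was -0.46, 0.26 and 0.75 (lowest, median, highest) in EOM and 0.72, 1.05 and 1.59 in TA, and 7 of 8 TA libraries lay above every EOM library. The difference was 0.88, with an exact permutation p of 0.000311 and an adjusted p of 0.0118. The balance of creatine kinases changed in EOM grafts. The ratio of *Ckm* to *Ckb* was -7.84, -5.46 and -3.92 before and -6.73, 1.01 and 6.33 after grafting, and 6 of 7 grafts lay above every library before grafting. Here the difference was 7.10, with an exact permutation p of 0.00187 and an adjusted p of 0.0354. *Ckm* had no read in 2 of 8 EOM libraries before grafting and in 1 of 7 EOM grafts, and *Ckb* in 1 of 7 EOM grafts. Ratios of those libraries depend on the 0.9 of a read at which such a gene is placed, and on depth. No other pair passed in any comparison. In the same exact tests, *Ckm* to *Ckb* was higher in TA before grafting by 3.06 (adjusted p = 0.0969). *Eno3* to *Eno1* was higher in EOM grafts by 2.01 (adjusted p = 0.063) and *Ldha* to *Ldhb* by 2.30 (adjusted p = 0.0945). Within Experiment 2 the first pair differed by 1.00 and the second by 8.08, each with an adjusted p of 0.0548. With sign flips within donors (replicate block) they were 0.924 and 6.52, each with an adjusted p of 0.148, and with exact p-values of 0.0156 and 0.0312, the smallest that 7 and 6 donors allow.

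**Figure D5:**
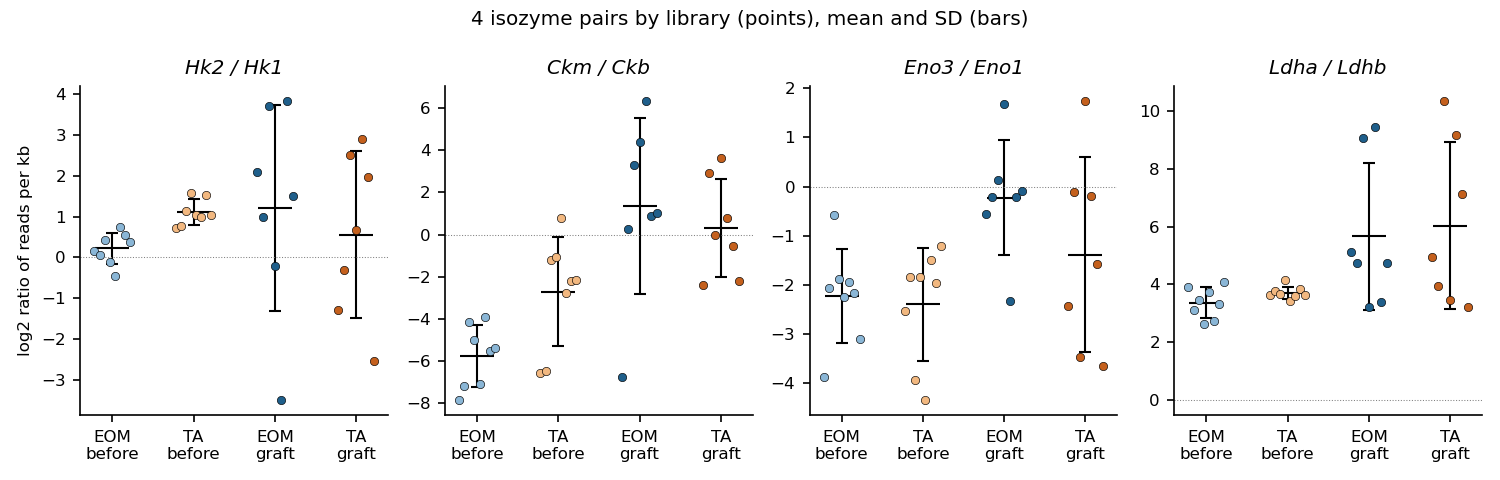
Log2 ratio of reads per kb for 4 isozyme pairs in each library (points) of the 4 groups, with mean and SD as bars. *Hk2* to *Hk1* separates TA from EOM before grafting but for 1 TA library, and *Ckm* to *Ckb* moves from a median of -5.46 in EOM before grafting to 1.01 in EOM grafts.

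Other genes of the same pathways were counted from lists, to be read against the 5.79% of all genes called higher and 6.27% lower in EOM grafts, and 7.41% and 6.21% in TA grafts. Of 10 other glycolysis genes tested in each graft comparison, 1 rose and 0 fell in EOM grafts, and 2 rose and 1 fell in TA grafts. *Pfkfb3*, which makes the activator of phosphofructokinase, was higher by 3.08 ± 0.74 in EOM grafts (adjusted p = 0.011) and by 3.26 ± 0.55 in TA grafts (adjusted p = 0.000746). *Pfkfb1*, of the same family, was higher in TA grafts by 2.80, and the hexose carrier *Slc2a12* was lower by -2.57. Before grafting 0 of 10 were called by limma and 4 had an unadjusted p under 0.05. Of the genes around glycogen, 2 rose and 5 fell among 21 tested in EOM grafts, and 3 rose and 4 fell among 22 in TA grafts. In EOM grafts those of largest size were *Ppp1r3c*, which brings a phosphatase to glycogen (3.95), *Phkg1* (-2.83) and *Phkg2* (-2.65), catalytic subunits of phosphorylase kinase, and *Nhlrc1* (-2.61). In TA grafts they were *Stbd1*, which binds glycogen (-3.92), *Ppp1r3a*, of the same family as *Ppp1r3c* (3.69), *Gaa*, the lysosomal enzyme that degrades glycogen (-3.12), and *Phka2* (-2.43). *Ppp1r3c* and *Ppp1r3a* did not pass the filter on low values in the comparison before grafting. They entered the graft tests only with the help of graft libraries, where they were called higher. Before grafting 1 of 20, the phosphorylase of liver *Pygl*, was lower in TA by -3.10 ± 0.66 (adjusted p = 0.00471).

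Among 8 other genes of pyruvate entry, *Dlat*, a subunit of pyruvate dehydrogenase, was lower in EOM grafts (-2.53), and none was called in TA grafts or before grafting, where limma gave 1 and 1 with an unadjusted p under 0.05. Of the other genes of energy buffering, adenylate kinase *Ak1* was higher in EOM grafts (2.26), as 1 of 9 tested. None of the 7 genes of the pentose phosphate pathway was called in any comparison by limma, and 1 or 2 of them had an unadjusted p under 0.05 in each. Of 15 targets known from hypoxia, 14 were tested in these comparisons. *Pdgfb*, which endothelial cells make too, was higher in EOM grafts (4.55) and *Vegfa* lower in TA grafts (-1.95). Of 24 regulators of these pathways tested in EOM grafts, 2 were higher and 3 lower, and of 23 in TA grafts 3 were higher and 3 lower. *Mef2c*, a factor of muscle and vessel differentiation, was higher by 5.50 and 4.43, and *Epas1*, the hypoxia-inducible factor of vessels, by 3.28 and 2.90. Beside these, 10 and 11 of 11 endothelial markers were called higher in EOM and TA grafts, and their part in the values of *Pdgfb*, *Mef2c* and *Epas1* was not tested. *Vhl* (-2.64), which marks hypoxia-inducible factors for removal, and *Ppard* (-2.37) were lower in EOM grafts. *Mlxipl*, a glucose-responsive factor, was lower in EOM grafts (-2.19) and in TA grafts (-3.18). Before grafting limma called 0 of 24 regulators, 0 of 14 hypoxia targets and 0 of 9 genes of energy buffering, of which 5, 3 and 3 had an unadjusted p under 0.05, and in TA grafts 0 of 10 genes of energy buffering, of which 1 did.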

How the data were processed

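RNA and DNA of the same cells were separated and sequenced, and the RNA libraries are used here. Per the labels and the methods of the study, the authors trimmed paired-end reads of 75 bases with Trim Galore 0.4.4, aligned them to GRCm38 with HISAT2 2.1.0, and scaled the counts by library size on a log2 scale in Seqmonk. The table deposited by the authors holds log2 RPM per gene. The summary tables deposited by the authors hold read counts per library and the percent that fell in genes, in exons, in rRNA or on the mitochondrion. The annotation release and the rule for reads with several places are not given in the sources used here.

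The lowest value of each library stands for 0 reads, at 0.9 of a read, and 99.9986% of the values came out as whole reads within 0.1 of a read. Of rows that repeat a symbol the one with the most reads was kept, which dropped 66 and left 25899 genes. The centring and levels follow the report. Exon lengths come from GENCODE vM21 on the same build, with 4902 bases as the reference length. The 32 genes and all lists were chosen with earlier results of these data known. Limma 3.58.1 (R 4.3.3) was fitted with a trend on genes whose log2 RPM passed 1 in 4 or more of the compared libraries, with two-sided moderated tests, and tested on simulated data. On the log2 scale with a floor, fold changes of genes without a read in some libraries depend on that floor. Such values from limma were smaller than those of DESeq2 for *Pgam2* in EOM grafts (2.52 and 4.69). They were larger in size for *Pdk4* in TA grafts (-3.68 and -1.52). The study used count tests, and edgeR 4.0.16 and DESeq2 1.42.0 on recovered reads are alternatives here because the deposited values are log2 RPM. The other alternatives are no centring, centring on each library's own median, no filter, log2 of RPM plus 1, the donor as block, Experiment 2 alone, all libraries, 1 fit over 4 groups and, for grafts, none under 20 cells. Leaving out each library, and Experiment 1 alone before grafting, were added after seeing the data.

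EOM and TA of 1 number come from 1 donor mouse per the methods of the study. The median correlation of deviations between libraries of 1 donor was 0.054 between muscles before grafting, -0.037 and 0.005 between stages in EOM and TA, and 0.048 between grafts. Isozyme pairs were compared in log2 RPM by exact permutation (SciPy 1.17.1) where neither gene lacked reads in most libraries of a group. Genes named outside the 32 are up to 4 per list and comparison, those called with the largest fold. The values of 1 gene that this rule names are not reported here. Promoters are from RefSeq, GRCm38.p6.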

Additional observations from a re-analysis of the deposited data

Results flagged for a closer look

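Of 128 groups of libraries (32 genes in 4 groups), 17 held a library far from the others of its group, by the gap to its neighbour over the range of the group, and chance flags about 1 in 20 groups. The marked library had 0 or 1 read in 6 of the 17. The EOM library of mouse 2 of Experiment 2 before grafting was marked 5 times. Its levels were -1.73 for *Pfkp* (229 reads) and -3.38 for *Slc16a3* (29 reads), the lowest of their group, and -3.95 for *Aldoc* (12 reads), -1.41 for *Pdk1* (166 reads) and -1.81 for *Ckmt2* (24 reads), the highest. That library also had the highest sum of macrophage markers, 2102 RPM where the median EOM library before grafting had 33.9 RPM, and of Schwann cell markers, 4557 RPM. The part of these cells was not tested.

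Among EOM grafts, the library of 9 cells (mouse 4 of Experiment 2) had the lowest levels of *Pgam1* (-1.50, 7 reads) and *Slc16a3* (-5.88, 0 reads). Mouse 2 of Experiment 2 had the lowest *Pdk1* (-7.72, 0 reads), mouse 4 of Experiment 1 the lowest *Ckm* (-7.00, 0 reads) and mouse 6 of Experiment 2 the highest *Aldoc* (-1.34, 21 reads). Among TA grafts, mouse 3 of Experiment 2 had the lowest *Pgam1* (-0.86, 4 reads) and, without a read, the highest *Aldoc* (-3.73), since its floor lies higher.

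Before grafting, *Pdk3* was lowest in EOM of mouse 5 of Experiment 2 (-7.07, 1 read) and in TA of mouse 4 of Experiment 1 (-6.18, 0 reads). *Gys1* was lowest in EOM of mouse 5 of Experiment 1 (-4.47, 8 reads). *Eno1* was lowest in TA of mouse 1 of Experiment 2 (0.31, 188 reads), and *Aldoc* was highest in TA of mouse 3 of Experiment 2 (-3.18, 12 reads).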

How the results depend on the processing

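No value called turned its sign under any alternative. The counts of genes called higher and lower before grafting (1 and 0) became 0 and 1 without centring, 0 and 0 with own-median centring, the donor as replicate block or 1 fit over 4 groups, 3 and 0 with edgeR and with DESeq2, and 2 and 0 in Experiment 2 alone. In EOM grafts (2 and 2) they became 1 and 17 without centring, 4 and 1 with edgeR, 4 and 2 with DESeq2, 1 and 1 with the replicate block, 2 and 1 in Experiment 2 alone, 1 and 3 with all libraries and 3 and 1 in the fit over 4 groups. In TA grafts (2 and 3) they became 1 and 12 without centring, 1 and 3 with own-median centring and in the fit over 4 groups, 1 and 2 with edgeR, 2 and 1 with DESeq2, 1 and 1 in Experiment 2 alone, 0 and 2 with all libraries and 0 and 3 without grafts of under 20 cells. The block changed no call in TA grafts. Without each library in turn, chosen after seeing the data, the counts ranged over 0 to 3 and 0 to 0 before grafting, 2 to 4 and 1 to 2 in EOM grafts, and 0 to 2 and 2 to 4 in TA grafts. Between grafts and for the difference of changes they were 0 under every alternative. Isozyme pairs that passed (1 before grafting, 1 in EOM grafts) were 0 and 0 within donors (replicate block) and in Experiment 2 alone, and 1 and 2 with log2 of RPM plus 1. Within donors a pair could hardly pass after adjustment, since so few donors keep the smallest exact p-value large. The cause of the other changes was not tested. Graft libraries came from few cells, and genes at 0 to 3 reads cannot be ranked.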
